A study of Mus musculus with 12 samples.

Results

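Activated regulatory T cells (Treg) that lack Cd83 were compared with activated Treg that carry it. The comparison used 6 of the series' 12 arrays, all of those hybridised with RNA of cells kept for 3 h with antibodies to CD3 and CD28. The KO group held 3 arrays of CD83cKO mice, 2 from mice of 10 weeks and 1 from a mouse of 21 weeks. The WT group held 3 arrays of CD83 WT mice, all of 9 weeks. All mice were female, on the C57BL/6 background, and the cells were sorted from spleen. Per the labels' protocols, 40 ng of total RNA entered the amplification of every sample taken at 3 h. The labels name no promoter that drives the deletion and do not say which part of Cd83 was removed. The 12 arrays came from 6 mice, and which mouse gave which array is not labelled, so p-values measure only the spread between arrays. The activated KO and activated WT arrays were on different slides, and slide and genotype cannot be told apart. The KO arrays of 0 h and 3 h shared a slide. The WT arrays of 0 h and 3 h did not, so in WT slide and time cannot be told apart.

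Treg hold immune responses in check, and the transcription factor Foxp3 defines their lineage. On stimulation through the T cell receptor, part of them become effector Treg, which carry homing and inhibitory receptors such as Klrg1 and the interleukin 33 receptor Il1rl1. CD83 is a membrane protein of the immunoglobulin superfamily, best known from mature dendritic cells, where it keeps MHC class II and CD86 on the surface, and it is also induced on activated T cells.

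Each level below is the log2 signal of a gene's probe relative to its array's own 75th percentile, so 0 lies among the brighter genes and about -7 at the limit of detection. Differences are KO minus WT on that log2 scale. Each value after ± is a moderated standard error (SE) from the limma model given below. This SE draws on the spread of the 0 h arrays and of other genes, so it is not the SE of the 6 arrays alone. The lowest signal well above background stood at -6.84 and -6.75 on the 10-week KO arrays, at -6.12 on the 21-week KO array and at -7.66, -7.40 and -7.51 on the WT arrays. The 21-week array stood apart from the rest. On the first principal component of the 6 arrays, which held 77.7% of the variance, it lay at 190.6 and the others between -56.9 and 7.07. Across genes it correlated with the other 5 arrays at r of 0.851 to 0.896, against 0.971 to 0.991 between the others. Genes are not independent replicates, and these values only describe the arrays. The genes described are therefore given with the 2 ages of KO array apart, and the main counts also without the 21-week arrays.

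Of 18545 genes tested, 233 rose and 35 fell in KO at an adjusted p under 0.05 (limma, 1 model of all 12 arrays, 8 residual degrees of freedom), which is 1.26% and 0.189% of the genes and 1.45% for both. The rises were mostly of dim genes, with a median WT level of -5.86 against -2.68 over all genes. Of the 233, 44 were not above background on any WT array, and 7 of these were on none of the 6 arrays. Those 7 entered the test through the 0 h arrays. Of the 35 falls, 12 were not above background on any KO array. Restricted to the 15007 genes measured above background on each of the 6 arrays, the counts were 153 rises (1.02%) and 18 falls (0.12%). The fit rests on the spread shared with the 0 h arrays. With only the 6 arrays at 3 h, limma called 0 genes, with 1396 at an unadjusted p under 0.05 and a smallest adjusted p of 0.0584. In the authors' log2 table, 151 genes rose and 50 fell, so that 75.1% of the calls were rises, against 86.9% here. Single arrays moved the total: it was 562 without KO replicate 1 (10 weeks), 130 without WT replicate 1 and 139 without WT replicate 3. The falls numbered 67, 14 and 11 in those fits, and 19 without WT replicate 2. With both 21-week arrays left out, 258 genes rose (1.39%) and 109 fell (0.588%), together 1.98%, and 209 of the 268 calls were shared.

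**Figure D1:**
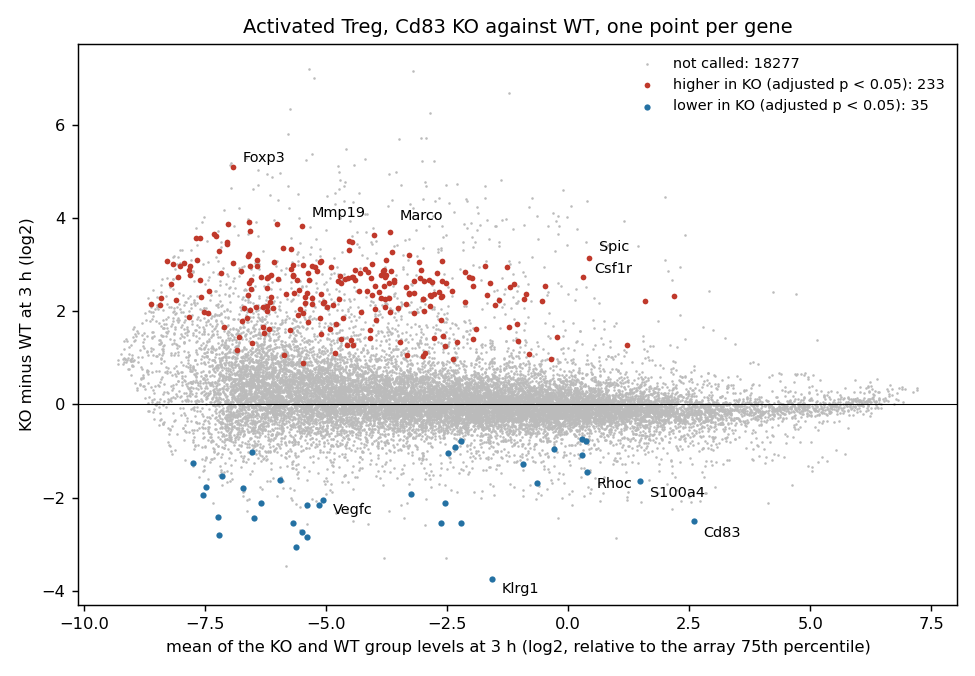
Each point is 1 of the 18545 genes, with the mean of the KO and WT group levels on the horizontal axis (log2, relative to the array's 75th percentile) and KO minus WT on the vertical axis (log2). The 233 rises lie mostly at low levels, while Cd83 and S100a4 are among the brightest of the 35 falls.

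The targeted gene was read first. Cd83 stood at 1.06 and 1.07 on the 10-week KO arrays, at 1.92 on the 21-week KO array, and at 4.21, 3.69 and 3.65 on the WT arrays. It was lower on every KO array than on every WT array, and the 21-week array lay closest to WT. The difference was -2.50 ± 0.26 (moderated SE, n = 3 against 3), a 5.66-fold fall, with a limma adjusted p of 0.0023. The signal stayed above background on all 6 arrays. Its 1 tested probe lies on chromosome 13 at 43898276 to 43898335 (mm9, plus strand), and whether the deleted part covers it is not given in the labels. Within 5 Mb on either side, 46 other genes were tested and 0 were called. Their differences ran from -0.69 to 2.29, and from -0.55 to 1.21 for the 10-week arrays.

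Foxp3 gave a reading that went against the label of the WT cells. Its 1 tested probe (chromosome X, 7172301 to 7172360, mm9) read -5.84 and -4.09 on the 10-week KO arrays, -3.16 on the 21-week KO array, and -9.62, -9.26 and -9.51 on the WT arrays. It was not well above background on any WT array, although these were labelled as sorted Treg, and it was above background on all 3 KO arrays. The difference was at least 8.92-fold higher in KO, with a limma adjusted p of 0.02. Here "at least" sets the KO mean against the WT mean of, per array, the probe's own value or the lowest signal well above background, whichever was higher. The probe was also called without both 21-week arrays. The call was lost with normexp background correction, without KO replicate 2 or 3, without any 1 of the WT arrays and in the fit of only the 6 arrays.

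Several other Treg genes were bright, while Gpr83, like Foxp3, was not above background on any WT array. Of the Treg core signature, 20 genes were tested, 1 rose (Foxp3) and 0 fell, with a median difference of -1.14 against 0.04 over all genes. The median was -0.09 for the 10-week arrays and -2.98 for the 21-week array. Without the 21-week arrays, 2 of the 20 rose and 2 fell, against 1.39% and 0.588% of all genes. Every KO array lay below every WT array in 6 of the 20 (7.38% of all genes) and above in 1 (11.8%). Lrrc32, which presents latent TGF-beta on the Treg surface, read 5.14 and 5.04 on the 10-week KO arrays, -0.98 on the 21-week KO array, and 5.23, 5.16 and 5.13 on the WT arrays. The 10-week and WT arrays thus read nearly alike, and the 21-week array lay far below both. The Ikaros-family factors gave the same picture: Ikzf2 differed from WT by -0.09 at 10 weeks and -4.20 at 21 weeks, and Ikzf4 by -0.05 and -4.74.

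The T cell lineage list, which holds CD3 chains, Cd4 and the proximal kinases, showed the same split. All 15 of its genes were tested, and 0 rose and 0 fell. Its mean level relative to the WT mean was 0.04 and -0.06 on the 10-week KO arrays, -2.31 on the 21-week KO array, and between -0.04 and 0.06 on the WT arrays. Cd3e read 3.29, 3.39 and, at 21 weeks, 1.37 in KO against 3.35, 3.33 and 3.45 in WT. In bulk RNA, fewer cells of a type and less RNA per cell cannot be told apart.

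Plasma cell genes moved the other way on the 21-week array. The list had 9 genes tested and 0 called, a mean level relative to WT of -0.16 and 1.12 on the 10-week KO arrays, 5.23 on the 21-week KO array and -0.24 to 0.18 on the WT arrays. Jchain, which links immunoglobulin into polymers, read 0.70 and 3.48 on the 10-week KO arrays, 7.17 on the 21-week KO array, and 0.67, 0.42 and 1.43 on the WT arrays. Sdc1, the plasma cell surface proteoglycan, read -5.58 and -3.13, then 2.24 at 21 weeks, against -5.62, -4.64 and -4.58. The B cell list differed by a median of 0.37 at 10 weeks and 1.84 at 21 weeks, with 0 of 11 genes called. The part of these cells in the calls was not tested.

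**Figure D2:**
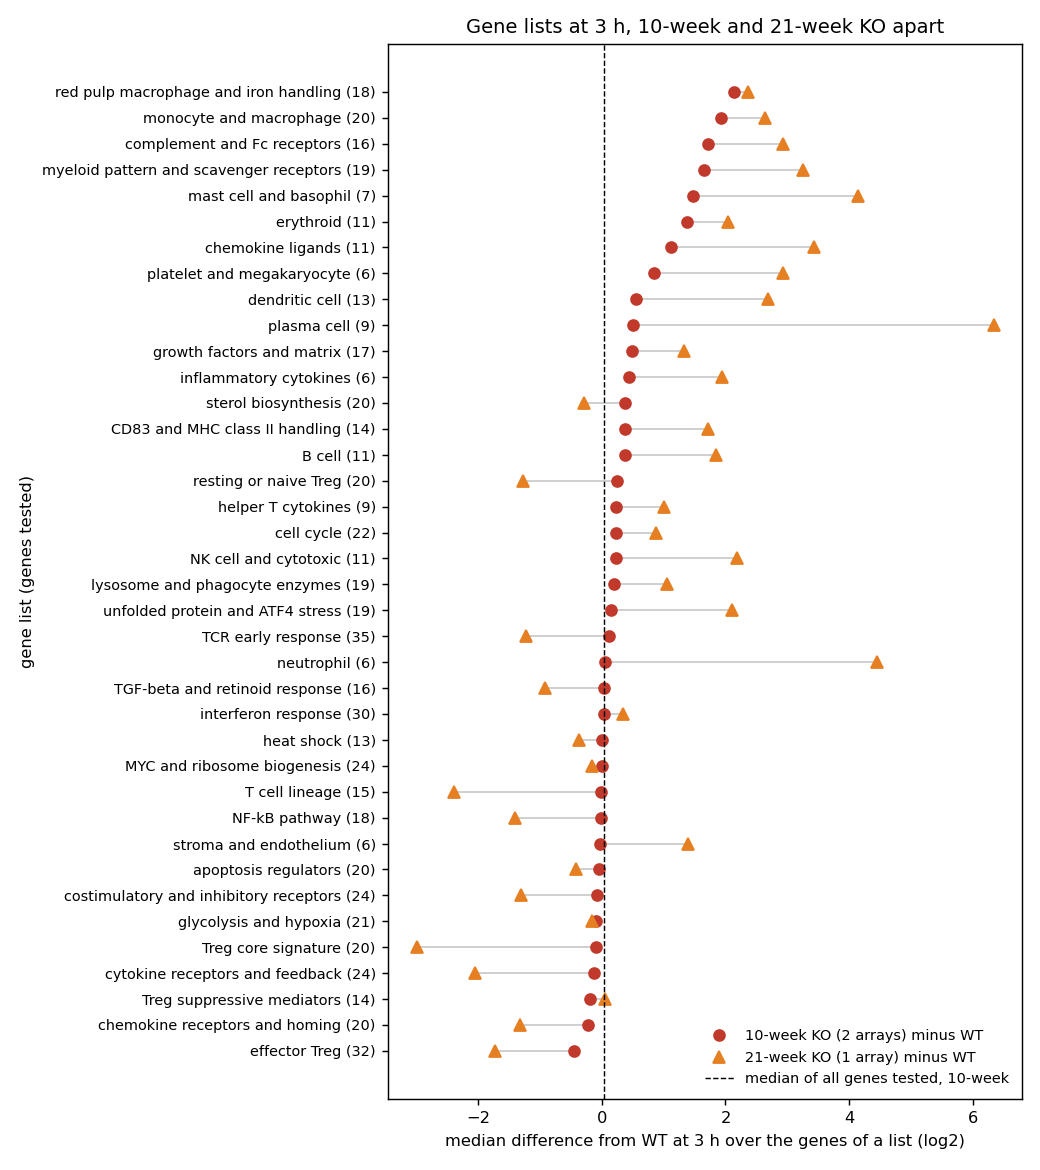
Each row is a gene list with the number of its genes tested, and the horizontal axis is the median difference from WT at 3 h (log2) for the 10-week KO arrays (circles) and the 21-week KO array (triangles). The macrophage, red pulp, pattern receptor and complement lists lie to the right at both ages. The neutrophil list lies at 0.05 at 10 weeks and at 4.45 at 21 weeks. The T cell lineage and Treg core lists lie near 0 at 10 weeks and at -2.39 and -2.98 at 21 weeks.

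Effector Treg markers included some of the falls. Klrg1, an inhibitory receptor for cadherins carried by short-lived effector Treg, read -2.17 and -2.81 on the 10-week KO arrays, -5.37 on the 21-week KO array, and 0.47, -0.02 and 0.46 on the WT arrays. All KO arrays lay below all WT arrays, and the 21-week array was the lowest. The difference was -3.75 ± 0.74 (moderated SE, n = 3 against 3, limma adjusted p = 0.0386). Over the 10-week arrays alone it was -2.79 (limma adjusted p = 0.00562). With all ages, the call was lost under quantile normalization, in the authors' log2 table, without a shift between arrays, without KO replicate 2 and without any 1 of the WT arrays.

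S100a4, a calcium-binding protein of motile and memory T cells, read 0.50 and 0.78 on the 10-week KO arrays, 0.74 on the 21-week KO array, and 2.28, 2.21 and 2.46 on the WT arrays. The KO arrays of both ages lay together, well below WT. It fell by 1.64 ± 0.21 (limma adjusted p = 0.00461). S100a10, the annexin A2 partner encoded on the same chromosome, also fell: it read between -0.11 and 0.03 on the KO arrays against 0.74, 0.69 and 0.85 in WT, a difference of -0.79 (limma adjusted p = 0.0201). Of 11 S100a genes tested, 0 rose and 2 fell, where 0.189% of all genes fell, and the family median was -0.27. The median was -0.54 at 10 weeks and 0.32 at 21 weeks. This family was picked after its values were seen.

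The effector Treg list as a whole had 32 genes tested, of which 1 rose (Pparg) and 2 fell (Klrg1 and S100a4). In 19 of them every KO array lay below every WT array, where 7.38% of all genes did so. The list's median difference was -1.21, made up of -0.44 at 10 weeks and -1.73 at 21 weeks. Pparg, a nuclear receptor of tissue Treg, moved opposite to the list. It read -2.01, -1.97 and, at 21 weeks, -1.74 in KO against -3.31, -3.24 and -2.92 in WT, with a difference of 1.25 (limma adjusted p = 0.0147). Its call was lost without WT replicate 1, without WT replicate 2 and without a shift between arrays.

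More of the list passed once the 21-week arrays were left out. In that fit 7 of the 32 genes fell, namely Klrg1, S100a4, S100a6, Il1rl1, Cxcr3, Maf and Lgals1, against 0.588% of all genes, and Pparg rose. Il1rl1, the interleukin 33 receptor of tissue-homing Treg, read 0.66 and 0.32 on the 10-week KO arrays, -2.34 on the 21-week KO array, and 2.38, 2.27 and 2.61 on the WT arrays. It lay below WT on every KO array, with a difference of -1.93 at 10 weeks (limma adjusted p = 0.00447), while the fit of all arrays gave -2.88 with an adjusted p of 0.0601. S100a6 differed by -1.55 at 10 weeks (limma adjusted p = 0.00665) and by -0.75 at 21 weeks.

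Some of the genes called lower without the 21-week arrays stood above WT on the 21-week array. Lgals1, a glycan-binding suppressive lectin, read 0.94 and 1.38 on the 10-week KO arrays and 2.88 on the 21-week KO array, against 2.28, 2.03 and 2.19 in WT. The 10-week arrays lay below the WT range and the 21-week array above it. Capg, an actin-capping protein of the Treg signature, read 2.40 and 2.23, then 4.02 at 21 weeks, against 2.95, 2.90 and 3.11. Of the 78 genes called lower only in the fit without the 21-week arrays, 15 lay above the WT mean on the 21-week array. Lgals1 and Capg are named here after their values were seen.

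Other genes called lower only in the fit without the 21-week arrays included the homing receptor Ccr6 and the CDK5-binding protein Cables1. Ccr6 read -0.13 and -0.77 on the 10-week KO arrays, -2.50 on the 21-week KO array, and 0.86, 0.76 and 1.01 on the WT arrays, a 10-week difference of -1.32 (limma adjusted p = 0.0132). Cables1 read -1.49 and -0.93, then -2.32 at 21 weeks, against 0.29, 0.29 and 0.39, a 10-week difference of -1.53 (limma adjusted p = 0.0105). Both genes lay below WT on all 3 KO arrays. The 10-week differences of Glrx, Matn2, Ppm1j, Rai14, Tctex1d2 and Ccrl2 ran from -1.38 to -1.17. Of these, Ccrl2, Rai14 and Tctex1d2 stood above the WT mean on the 21-week array, by 0.55, 1.03 and 0.36.

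**Figure D3:**
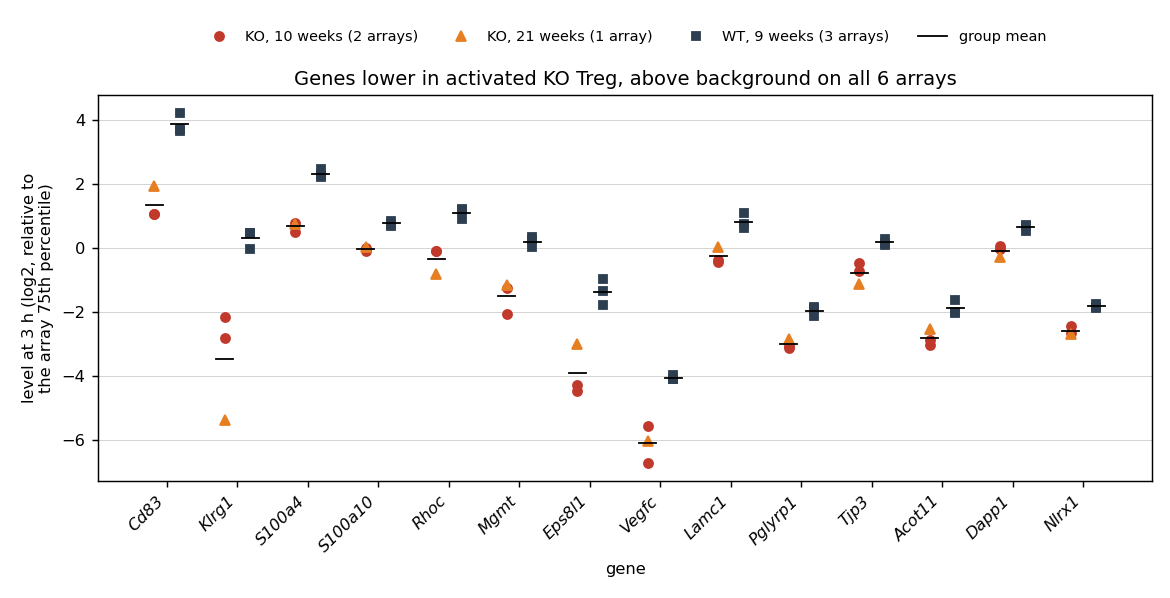
Levels at 3 h (vertical axis, log2, relative to the array's 75th percentile) of 14 genes that fell in KO and were above background on all 6 arrays, with circles for 10-week KO, triangles for 21-week KO, squares for WT and bars for group means. The KO arrays lie below the WT arrays for every gene drawn, and Klrg1 has the widest spread between KO arrays.

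The other falls that were measured on all arrays spanned several functions. Rhoc, a GTPase of cell migration, read -0.10 on both 10-week KO arrays and -0.80 on the 21-week KO array, against 1.19, 0.90 and 1.21 in WT, and fell by 1.44 (limma adjusted p = 0.0127). Mgmt, the DNA repair enzyme that removes alkyl groups from guanine, read -1.25, -2.05 and, at 21 weeks, -1.16 against 0.34, 0.01 and 0.24, and fell by 1.68 (limma adjusted p = 0.0305). Lamc1, a laminin chain, read -0.39, -0.44 and, at 21 weeks, 0.04 against 0.74, 0.62 and 1.09, and fell by 1.08. The 10-week and 21-week differences were -1.21 and -1.91 for Rhoc, -1.85 and -1.36 for Mgmt and -1.23 and -0.78 for Lamc1. In each of the 3, the KO and WT arrays did not overlap.

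Eps8l1, related to an actin regulator, had one of the larger falls at -2.54 (limma adjusted p = 0.0262). It differed by -3.00 at 10 weeks and -1.63 at 21 weeks. Vegfc, the growth factor of lymphatic vessels, read -6.71, -5.54 and, at 21 weeks, -6.02 against -4.07, -4.09 and -3.97 in WT, a fall of 2.05 (limma adjusted p = 0.0058). The KO arrays lay near the limit of detection. Pglyrp1, a peptidoglycan-binding protein, the pseudogene Gm5801 and the junction protein Tjp3 fell by 1.04, 1.28 and 0.95. Their differences were -1.12, -1.11 and -0.77 at 10 weeks and -0.89, -1.62 and -1.31 at 21 weeks. Acot11, a thioesterase, and Dapp1, a signalling adaptor, fell by 0.92 and 0.73, with -1.06 and -0.63 at 10 weeks and -0.63 and -0.93 at 21 weeks.

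Nlrx1, a mitochondrial NOD-like receptor, fell by 0.78 on its brighter probe (-0.73 at 10 weeks, -0.88 at 21 weeks), but its other tested probe differed by 1.25 in the opposite direction, so its call depends on the probe. The remaining named falls were not above background on at least 1 KO array. The clearest was the lncRNA gene 2310065F04Rik, which read -7.86, -7.20 and, at 21 weeks, -6.39 in KO against -4.14, -3.95 and -4.19 in WT, at least 5.57-fold lower (limma adjusted p = 0.0026). Others were Muc4, Gm2516, Tff1, Smarcd3, Cga, Frmd5, C1qtnf6, Dscam, 9230102O04Rik, D130040H23Rik, Ngef, Il17rb, Cc2d2a, G530011O06Rik and Cdcp1. The list of 35 falls also held 3 probes without a gene symbol. Of the 35, 31 were called without the 21-week arrays, and 18 were also called lower at 0 h. At 0 h, 32 of the 35 had a difference of the same sign. Over all genes, the median difference at 0 h was -0.03, and the shares lying lower or called lower in KO were not counted. The KO arrays of both times shared a slide that held no WT array, and could come from the same mice. These counts at 0 h are therefore not an independent check of the falls.

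Muc4, a membrane mucin, read -6.44, -5.96 and, at 21 weeks, -8.07 in KO against -3.92, -4.31 and -3.70 in WT. KO minus WT came to -2.85 after activation (limma adjusted p = 0.0447), whereas before it the gene was not called. Its mean at 0 h was -7.75 in KO and -9.06 in WT, at or below the limit of detection, so no difference is read from that time. A test of the 3 h against the 0 h difference called 0 genes in limma (688 at an unadjusted p under 0.05, smallest adjusted p of 0.0515).

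The rises included many genes of macrophages and other myeloid cells. Over 4 myeloid lists, 34 of 67 genes tested rose (50.7%, against 1.26% of all genes) and 0 fell. The neutrophil, mast cell and lysosome lists were not among the 4, and had 0 of 6, 0 of 7 and 0 of 19 called. Their medians were 0.05, 1.47 and 0.20 at 10 weeks and 4.45, 4.13 and 1.05 at 21 weeks. The median difference of the 67 was 2.25, against 0.04 over all genes, and it was 1.84 at 10 weeks and 2.66 at 21 weeks. Without the 21-week arrays, 33 of the 67 rose. These lists were made with earlier results of these arrays known. Of the 34, 29 were above background on all 6 arrays, and all 34 lay higher in KO at 0 h too, as did all 233 rises. Over all genes, the median difference at 0 h was -0.03, and the share higher in KO at 0 h was not counted. The KO arrays of 0 h and 3 h shared a slide that held no WT array, and could come from the same mice. The 0 h values are therefore not an independent check of the rises. In WT, 25 of the 34 were lower at 3 h than at 0 h, against 16.6% of all genes. The WT arrays of 0 h and 3 h were on different slides, so time and slide cannot be told apart there. Without a shift between arrays, the 4 lists had 4, 2, 4 and 3 rises (macrophage, red pulp, pattern receptor, complement), and with normexp the pattern receptors had 2. Single arrays moved these counts too: in the same order they were 9, 6, 5 and 3 without WT replicate 1 and 10, 6, 4 and 4 without WT replicate 3.

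The monocyte and macrophage list had 20 genes tested, of which 11 rose and 0 fell. Its mean level relative to the WT mean was 1.27 and 1.85 on the 10-week KO arrays, 2.46 on the 21-week KO array, and -0.24 to 0.19 on the WT arrays. Csf1r, the receptor that macrophages need to survive, read 0.98 and 1.74 on the 10-week KO arrays, 2.27 on the 21-week KO array, and -1.30, -0.96 and -0.95 on the WT arrays. It was higher on every KO array, with a difference of 2.73 ± 0.32 (moderated SE, limma adjusted p = 0.00293).

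Mrc1, the mannose receptor, read -3.20 and -2.78 on the 10-week KO arrays, -2.90 on the 21-week KO array, and -6.36, -5.33 and -5.82 on the WT arrays, a difference of 2.88 ± 0.32 (limma adjusted p = 0.0026). The ages lay close, at 2.85 and 2.94 above WT. Cd68, Cd14, Adgre1 (the F4/80 antigen), Mpeg1 and Lgals3 were among the other rises, by 1.72 to 2.35, with 1.52 to 2.22 at 10 weeks and 2.12 to 3.05 at 21 weeks. Among the defining genes that were not called were Lyz2, at 2.34 with a limma adjusted p of 0.343 (1.47 at 10 weeks, 4.07 at 21 weeks), and Itgam, at 0.52 (0.51 and 0.54). Every gene of the list was above background on at least 1 array of each genotype.

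The 3 chains of complement C1q, which form the recognition unit of the classical pathway, rose together. C1qc read -1.67, -0.88 and, at 21 weeks, -1.27 in KO against -4.32, -3.64 and -3.79 in WT, a difference of 2.64 ± 0.32 (limma adjusted p = 0.00401). C1qa and C1qb differed by 2.32 and 2.42, and the 10-week and 21-week values of the 3 chains lay between 2.30 and 2.65. Of 16 complement and Fc receptor genes tested, 8 rose and 0 fell. The others were Cfp, the properdin that stabilises the alternative pathway convertase, the signalling adaptors Fcer1g and Tyrobp, and the receptors Sirpa and Lilrb4a. Their differences ran from 1.12 to 2.33 at 10 weeks and from 1.16 to 3.86 at 21 weeks.

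Genes of the red pulp macrophage, the splenic cell that clears aged erythrocytes and recycles their iron, rose in 10 of 18 tested, with 0 falls. Spic, the transcription factor on which these cells depend, read 1.85 and 1.99 on the 10-week KO arrays, 2.21 on the 21-week KO array, and -1.56, -0.51 and -1.35 on the WT arrays. The KO arrays of both ages lay close together. The difference was 3.15 ± 0.29 (moderated SE, n = 3 against 3, limma adjusted p = 0.00176). Vcam1, the adhesion molecule that marks these cells, read -0.20, 0.34 and, at 21 weeks, 0.49 against -3.37, -2.21 and -2.65, a difference of 2.95 (limma adjusted p = 0.0065).

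Some of the rises of this list handle iron, but its iron genes Ftl1, Fth1 and Trf were not among the rises. The 8 of its 18 tested genes that were not called reached down to a difference of -0.70. Slc40a1, the iron exporter ferroportin, read -0.75, -0.69 and, at 21 weeks, -0.64 against -3.89, -2.80 and -3.00, a difference of 2.54 (limma adjusted p = 0.00502). Hmox1, which degrades heme, read 2.65, 3.70 and, at 21 weeks, 3.69 against 0.56, 1.64 and 0.87, a difference of 2.32 (limma adjusted p = 0.0431). Slc11a1, the phagosomal metal transporter, and Nr1h3, the oxysterol receptor LXR alpha, rose by 2.61 and 2.72, with 2.41 and 2.52 at 10 weeks and 3.02 and 3.13 at 21 weeks. Cd5l, Mertk, Marco and Hpgd were the other rises of the list. Cd163, Siglec1, Timd4, Vsig4 and Kcna2 were not above background on any of the 6 arrays.

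The red pulp list differed little by age, with medians of 2.13 at 10 weeks and 2.36 at 21 weeks. Erythroid genes, whose RNA comes from red cell precursors, were higher as a group but with a wide spread. Their mean level relative to WT was -0.42 and 2.79 on the 10-week KO arrays, 2.14 on the 21-week array, and 0.27, 1.11 and -1.38 on the WT arrays, with 0 of 11 called. Hba-a1, a hemoglobin chain, read 1.93, 5.22 and, at 21 weeks, 4.23 in KO against 2.24, 3.47 and 0.83, so that the groups overlapped.

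**Figure D4:**
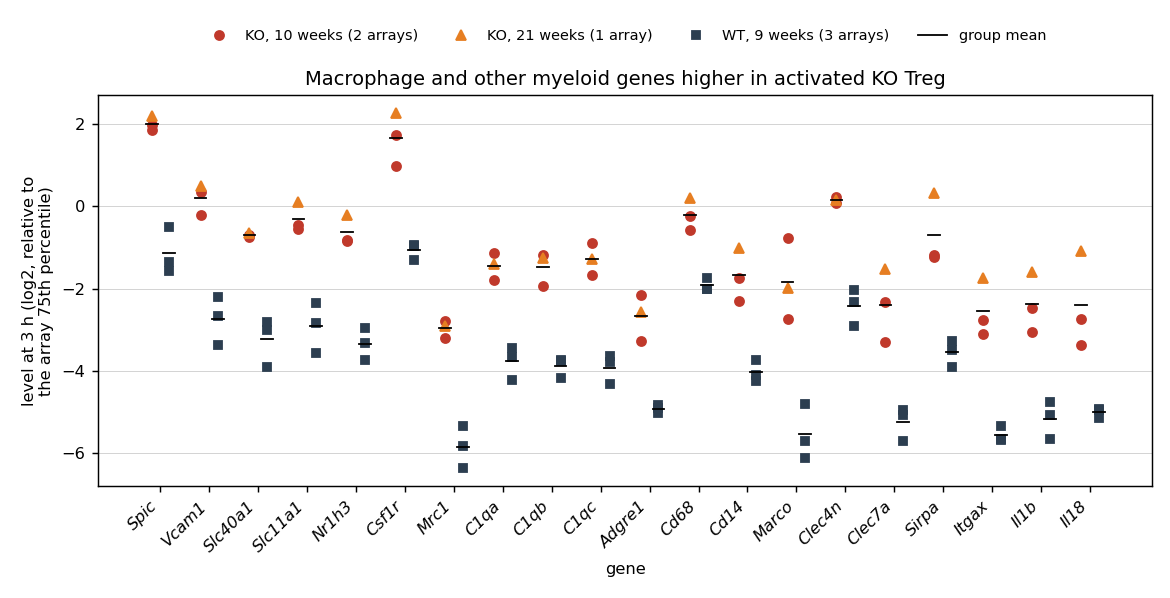
Levels at 3 h (vertical axis, log2, relative to the array's 75th percentile) of 20 myeloid genes that rose in KO, with circles for 10-week KO, triangles for 21-week KO, squares for WT and bars for group means. Every KO array lies above every WT array for each gene drawn, and the 21-week array is the highest for Csf1r, Sirpa and Il18 but among the 10-week arrays for C1qa and C1qc.

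Pattern and scavenger receptors followed, with 9 of 19 tested higher and 0 lower. Clec4n (Dectin-2), a lectin that binds fungal mannans, read 0.09, 0.24 and, at 21 weeks, 0.17 in KO against -2.90, -2.02 and -2.31, a difference of 2.58 ± 0.37 (limma adjusted p = 0.00717). Marco, a scavenger receptor of the marginal zone, read -2.75, -0.78 and, at 21 weeks, -1.98 against -5.70, -4.80 and -6.11, a difference of 3.70 (limma adjusted p = 0.0242). Its 10-week arrays were the most and the least bright of the KO arrays, and it was not called without the 21-week arrays (limma adjusted p = 0.0584).

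The formyl peptide receptor gene Fpr2 and the lectin genes Clec4a3 and Clec4b1 were not above background on any WT array and stood at least 3.07-fold, 3.26-fold and 7.42-fold higher in KO, where 2, 2 and 3 arrays measured them. All 3 were also called without the 21-week arrays. Tlr13, an endosomal sensor of bacterial RNA, rose by 1.77 (limma adjusted p = 0.0138), and was also called without the 21-week arrays, with 2.29 on the 21-week array. Tlr2 and Tlr4 differed by 1.61 and 2.78, with limma adjusted p values of 0.0659 and 0.171. Tlr2 was called without the 21-week arrays, with a difference of 1.13 at 10 weeks and 2.57 at 21 weeks, and Tlr4 differed by 1.66 and 5.03.

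Gene families were also counted, against the 1.26% of all genes that rose. They were picked after their values were seen and get no test as groups. Of the Cd300 receptors, encoded on chromosome 11, 6 of 8 tested rose, with a median of 2.10. Cd300ld read -3.45, -2.52 and, at 21 weeks, -2.67 against -5.89, -6.27 and -6.40, a difference of 3.31 ± 0.34 (limma adjusted p = 0.00214). The paired immunoglobulin-like receptors and the Lilr genes together gave 7 of 8. The Sirp and Pilr genes gave 3 of 3 each, the eosinophil-type ribonucleases (Ear) 4 of 5 and the Clec4 lectins 4 of 6. Other families gave fewer, with 2 of 3 Adgre receptors, 2 of 7 Ifi200 genes and 4 of 24 integrin chains. The family medians at 10 and 21 weeks were 1.87 and 2.60 for Cd300, 2.03 and 2.30 for the paired receptors with Lilr and 2.21 and 3.79 for Clec4. Of the paired receptors and Lilr genes, only Pirb, an inhibitory receptor, was not called. It was bright on all arrays, at 6.72, 6.60 and 6.95 in KO against 6.42, 6.63 and 6.34.

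Promoters of some rises are shown, picked because they bear the letters GAGGAAGT, the core bound by PU.1, a transcription factor of myeloid cells. Of 209 rises with a gene symbol, 157 had a window, so a gene without a match may lack the letters or have no window. Of the 3 C1q chains, only C1qc had a window with these letters. Of the Cd300 rises above background on all 6 arrays, only Cd300ld had one. The windows are the 250 bases before the transcription start in RefSeq (GRCm38.p6), read 5′ to 3′ on the gene's strand, with the match in capitals (ACTTCCTC where it lies on the other strand). C1qc lies at chr4:136892915-136893164, Cd300ld at chr11:114989887-114990136, Pira2 at chr7:3845052-3845301 and Lilra6 at chr7:3915502-3915751, all on the minus strand.
C1qc: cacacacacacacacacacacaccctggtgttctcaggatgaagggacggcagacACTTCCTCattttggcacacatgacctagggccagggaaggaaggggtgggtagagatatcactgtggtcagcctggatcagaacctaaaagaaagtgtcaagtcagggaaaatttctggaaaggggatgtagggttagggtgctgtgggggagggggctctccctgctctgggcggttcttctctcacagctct
Cd300ld: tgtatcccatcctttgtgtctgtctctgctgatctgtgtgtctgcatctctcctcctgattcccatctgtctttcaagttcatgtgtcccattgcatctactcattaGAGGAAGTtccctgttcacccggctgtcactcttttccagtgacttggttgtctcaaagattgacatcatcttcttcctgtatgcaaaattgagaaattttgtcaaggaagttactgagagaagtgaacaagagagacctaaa
Pira2: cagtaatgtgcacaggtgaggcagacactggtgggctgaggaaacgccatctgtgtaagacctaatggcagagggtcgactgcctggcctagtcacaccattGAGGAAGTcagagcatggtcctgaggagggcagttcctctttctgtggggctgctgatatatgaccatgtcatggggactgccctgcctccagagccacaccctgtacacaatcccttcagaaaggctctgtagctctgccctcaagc
Lilra6: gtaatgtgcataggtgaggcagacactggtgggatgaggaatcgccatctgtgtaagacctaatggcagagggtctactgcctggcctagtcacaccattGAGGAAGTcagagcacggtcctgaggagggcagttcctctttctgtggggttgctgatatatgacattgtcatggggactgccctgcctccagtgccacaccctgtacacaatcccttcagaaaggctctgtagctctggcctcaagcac

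Counted from the transcription start, the match began at -195 in C1qc, -143 in Cd300ld, -148 in Pira2 and -150 in Lilra6. It occurred in 8 of 157 rises with a window (5.10%), in 322 of 10454 tested genes (3.08%) and in 0 of 24 falls. TGANTCA, the AP-1 letters, occurred in 7.01% of rises, 5.53% of tested genes and 2 of 24 falls (8.33%). GGGANTTCC, the NF-kB letters, occurred in 0 of the 157 rises, 2.22% of tested genes and 1 of 24 falls (4.17%). That fall was Nlrx1, whose call depends on the probe. Both strands were searched, and a match is only a description of the letters. The windows of Pira2 and Lilra6 were identical at 238 of 248 aligned bases, and that of Gm14548, which also matched, was 94.6% and 95.4% identical to them. The 8 matches thus count near-copies of 1 promoter 3 times. Copies as close as these could share probe signal, so the single values of the paired receptors are uncertain. Pira2 rose by 2.28 and Lilra6 by 2.14, with 2.26 and 2.04 at 10 weeks and 2.33 and 2.34 at 21 weeks.

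Secreted factors of myeloid cells were higher in part. Il1b, the inflammasome cytokine, read -2.47, -3.05 and, at 21 weeks, -1.60 in KO against -5.65, -4.75 and -5.07, a difference of 2.79 (limma adjusted p = 0.0146). Il18 rose by 2.61 (limma adjusted p = 0.0279), with 1.95 at 10 weeks and 3.93 at 21 weeks. These were the 2 rises among 6 inflammatory cytokines tested, while Tnf and Il6 differed by 0.44 and 1.27 (0.24 and 0.65 at 10 weeks, 0.83 and 2.51 at 21 weeks) and were not called. The count of 2 became 0 without WT replicate 1 or WT replicate 3, and 1 without KO replicate 2 or WT replicate 2, under quantile normalization, with normexp, without a shift and in the authors' log2 table.

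Among 11 chemokine ligands 1 rose, Ccl2, which recruits monocytes, where 1.26% of all genes rose. Ccl2 read -5.96, -5.12 and, at 21 weeks, -5.14 against -7.35, -7.73 and -7.39, a difference of 2.09 (limma adjusted p = 0.0026). In WT it was above background on 2 arrays only and lay near the limit of detection. The call was lost with normexp, without a shift between arrays and in the fit of only the 6 arrays. Ccl4, an inflammatory chemokine of macrophages and T cells, read -0.58 and -0.28 on the 10-week KO arrays, 2.40 on the 21-week KO array and -2.58, -2.14 and -2.90 on the WT arrays. It did not overlap with WT, but was called only without the 21-week arrays, with a 10-week difference of 2.11 (limma adjusted p = 0.0116). Cxcl9 differed by 9.02 on the 21-week array and by 1.74 at 10 weeks, and was not called.

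Of 17 growth factor and matrix genes tested, 5 rose and 1, Vegfc, fell, and 3 of the rises were platelet-derived growth factors. The list's median difference was 0.76, but among the 9 of its genes above background on all 6 arrays 2 rose and the median was 0.04. Pdgfb read -0.99, -1.33 and, at 21 weeks, -1.23 in KO against -3.98, -3.13 and -3.76, a difference of 2.44 ± 0.22 (limma adjusted p = 0.00176). Pdgfa rose by 2.37 (limma adjusted p = 0.00551; 2.25 at 10 weeks and 2.61 at 21 weeks), and Pdgfc, not above background on any WT array, was at least 4.65-fold higher. Mmp19, a matrix metalloprotease, read -3.71, -3.65 and, at 21 weeks, -3.41 against -7.28, -6.83 and -8.11, a difference of 3.82 ± 0.30 (limma adjusted p = 0.00176). Its difference at 0 h was 0.90 and was not called. Fgf1, also not above background on any WT array, was the other rise, and it was not called without the 21-week arrays.

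The remaining large rises measured on all arrays included Tns3, Ptgis, Dysf, Ifi207, Hk3, Kcnj10, Igsf6, Tnfaip2, Clec1b, Soga1, Itgad, Hcar2 and Epb41l3. Their differences ran from 2.87 to 3.64, with 2.39 to 3.36 at 10 weeks and 2.92 to 5.28 at 21 weeks. Dysf, which reseals membranes, read -2.88, -2.85 and, at 21 weeks, -2.46 against -7.00, -5.52 and -6.14. Hk3, a hexokinase of myeloid cells, read -2.99, -1.96 and, at 21 weeks, -1.68 against -5.42, -5.25 and -5.26 (limma adjusted p = 0.00178). Ptgis, the prostacyclin synthase, rose by 3.51, with 3.36 at 10 weeks and 3.82 at 21 weeks. Among genes that were not above background in WT, Arhgef16 and Kif1a were at least 10.9-fold and 4.17-fold higher (measured on 3 and 2 KO arrays), and Slamf8, measured on 1 WT array, rose by 3.73. These 3 were also called without the 21-week arrays.

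Dendritic cell genes gave 2 rises among 13 tested and 0 falls. Itgax (CD11c) read -2.77, -3.11 and, at 21 weeks, -1.74 against -5.64, -5.34 and -5.67, a difference of 3.01 (limma adjusted p = 0.00815), and Batf3, a factor of cross-presenting dendritic cells, rose by 2.87, with 2.28 at 10 weeks and 4.05 at 21 weeks. Batf3 was not called without WT replicate 1 or WT replicate 3. The antigen presentation genes, on whose products CD83 acts in dendritic cells, gave no rise. Of 14 genes of CD83 and MHC class II handling, 1 fell, Cd83 itself. H2-Aa differed by 1.00 (0.51 at 10 weeks, 1.97 at 21 weeks) and Cd74 by 1.41, the latter from 0.11 at 10 weeks and 4.01 at 21 weeks. Cd86, the costimulatory ligand, read 0.39, 0.03 and, at 21 weeks, -1.39 against -0.10, -0.23 and -0.05.

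The medians of the T cell activation lists differed little from WT at 10 weeks. Of 35 genes of the early T cell receptor response, 0 were called, with medians of 0.12 at 10 weeks and -1.22 at 21 weeks. Without the 21-week arrays the immediate early factors Egr1 and Egr4 rose, by 0.70 and 1.06. These were 2 of the 35, where 1.39% of all genes rose. Nr4a2 read 3.25 and 3.60 on the 10-week KO arrays, 0.08 on the 21-week KO array, and 3.78, 3.53 and 3.54 on the WT arrays. The NF-kB pathway list had 0 of 18 called, and Tnfaip3, its feedback inhibitor, differed by 0.09 at 10 weeks and -3.57 at 21 weeks. In both lists the 21-week array lay further from WT than the 10-week arrays.

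Of 9 helper T cell cytokines tested, Il4, the signature cytokine of type 2 helper cells, rose. It read -5.22, -3.74 and, at 21 weeks, -3.47 in KO against -5.95, -6.88 and -6.44, a difference of 2.28 (limma adjusted p = 0.0372). It was not called in the authors' log2 table, under quantile normalization, without KO replicate 2 or 3, without any 1 of the WT arrays, or without the 21-week arrays (limma adjusted p = 0.106 at 10 weeks). The suppressive mediators had 0 of 14 called, with Il10 at 0.49 (0.23 at 10 weeks, 1.01 at 21 weeks) and Tgfb1 at -0.65 (-0.32 and -1.32). Ctla4 and Icos, both costimulatory family receptors, differed by -0.29 and -0.38 at 10 weeks and by -2.52 and -2.89 at 21 weeks, and neither was called.

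Without the 21-week arrays, 80 further genes rose. Besides Ccl4, they included Rab7b, Fcgr4, Tbkbp1, Tnfrsf14, Cdk14, Rab4a, Fabp4, Rhob and Itgb5, with 10-week differences from 1.53 to 2.05. Tnfrsf14, the herpesvirus entry mediator that binds BTLA, read -2.18 and -2.49 on the 10-week KO arrays, -3.59 on the 21-week KO array, and -4.20, -4.06 and -4.20 on the WT arrays. It was above WT on each KO array, with a 10-week difference of 1.82 (limma adjusted p = 0.00611). Rab4a, a GTPase of receptor recycling, read -1.46 on both 10-week KO arrays and -1.97 on the 21-week KO array, against -3.45, -3.22 and -2.73 in WT.

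**Figure D5:**
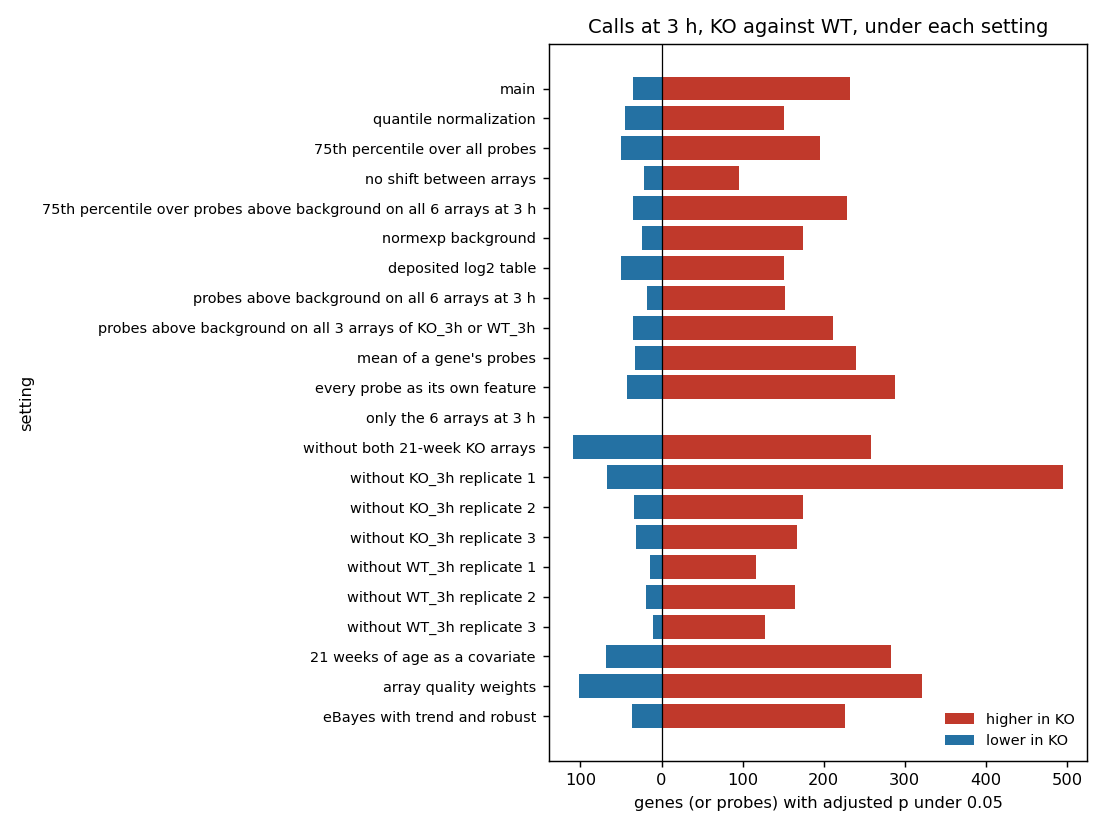
Bars give the number of genes (or, in 1 setting, probes) with a limma adjusted p under 0.05, with rises to the right and falls to the left of 0, for the main analysis and 21 of 22 other settings. Rises outnumber falls in every setting drawn that made calls, and the fit of only the 6 arrays at 3 h made 0.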

How the data were processed

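RNA of sorted splenic Treg was measured on single-dye Agilent arrays. The deposited scanner files hold spot intensity on a linear scale, extracted by Agilent software. Feature Extraction is given as 10.7.3.1 per the file headers and as version 11 in the submitters' processing notes, which also name Partek. The authors' deposited table of log2 values, whose scaling is not stated and whose columns all had a median of 3.89, was an alternative. Its rows followed the scanner values of their own arrays in rank.

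Control spots (leaving 59305 of 62976) and outlier spots were dropped, and spots of a probe averaged. The log2 processed signal was shifted by each array's 75th percentile, taken from 19799 probes that exceeded background on every one of the 12 arrays. Tests used probes that exceeded background throughout 1 group or more (3 of 3 arrays), with the brightest per gene. The 515 probes without a value on some array were left out, and 0 spots were saturated. The 75th percentile of raw signal at 3 h ran from 190.4 to 303.2, with 42.9% to 46.9% of probes above background. The number of arrays limits the precision. Probe coordinates are those of the array design (mm9).

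The package limma (3.58.1, R 4.3.3) gave two-sided moderated tests (lmFit, eBayes, Benjamini-Hochberg over all genes, threshold 0.05), and the code was tested on simulated data. In the contrasts by age, the 21-week array has no replicate and its values carry no test. The members and the 39 gene lists were chosen with earlier results of these data known. The genes named by rule were Cd83 and Foxp3, the falls with a symbol, the 20 largest rises above background on all 6 arrays, the 10 largest other rises, up to 5 called members per list (or 2 uncalled ones, as values) and the 10 largest rises and falls called only without the 21-week arrays. Further list members are given as values. A few genes that the rule or the lists hold are not reported here. There were 22 alternatives.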

Additional observations from a re-analysis of the deposited data

How the results depend on the processing

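Rises outnumbered falls in 21 of 22 alternatives; the other, limma on only the 6 arrays at 3 h, called 0 genes in either direction (1396 at an unadjusted p under 0.05). The total of 268 became 118 without a shift between arrays, 5075 without a filter on dim probes, 170 with probes above background on all 6 arrays and 423 with array quality weights, where the 21-week array weighed 0.069. The 233 rises became 151 under quantile normalization, 96 without a shift, 151 in the authors' log2 table, 4961 without the filter and 152 with probes above background on all 6 arrays. The 35 falls became 22 without a shift, 114 without the filter, 18 with probes above background on all 6 arrays, 109 without both 21-week arrays, 68 with age as a covariate and 102 with array weights. Leaving out 1 array at a time gave totals from 130 (without WT replicate 1) to 562 (without KO replicate 1), rises from 116 to 495 and falls from 11 (without WT replicate 3) to 67.

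The median of all genes, 0.04, moved to -0.11 under quantile normalization, -0.16 with the 75th percentile of all probes, -0.36 without a shift, 0.15 with normexp background and 0.52 without the filter. Of 82 named calls, 74 held without both 21-week arrays, 72 in the authors' table, 70 under quantile normalization, 51 with normexp, 46 without a shift and 0 in the fit of 6 arrays. Leaving out 1 array gave 43 (without WT replicate 1, and without WT replicate 3) to 78 (without KO replicate 1). Signs turned for Cc2d2a (0.0879 with normexp, 1.45 without the filter), G530011O06Rik (0.121) and Cd8b1 (0.0870) with normexp, Nlrx1 (0.237, mean of probes), Lat (0.0292), Sparc (-0.00448) and Tnfaip3 (0.0880) without the 21-week arrays, and Sparc (-0.193) and Tnfaip3 (0.0192) with array weights. With single arrays left out, Cad ran from -1.82 to 0.504 (without WT replicate 1), Rai14 from -1.27 to 0.0746 (without KO replicate 1), Lat from -1.76 to 0.0292, Sparc from -0.00448 to 1.30 and Tnfaip3 from -1.79 to 0.0880 (all 3 turned without the 21-week KO array). The cause was not tested.

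No paired analysis was possible because the labels carry no replicate number that ties a KO mouse to a WT mouse. Slide and genotype coincide, and no fit with slide as a term was run.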

Other observations

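The 268 calls were spread over the genome. By chromosome, the share of tested genes called ran from 0.166% on chromosome 19 to 2.47% on chromosome 1, apart from chromosome Y, where 0 of 5 tested genes were called. Chromosome 13, which carries Cd83, had 0.936%.

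Some of the widest differences of the 21-week array were in genes that passed no test. Derl3, a factor of protein export from the endoplasmic reticulum, differed from WT by 8.05 on that array and by 1.00 at 10 weeks, and Tnfrsf17, the BAFF-family receptor of plasma cells, by 10.08 and 1.28. Ly6c1 differed by 5.32 and 0.22. Over all 18545 genes, 6464 differed by more than 1 on the log2 scale between the 21-week array and the 10-week mean.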
